A study of Drosophila melanogaster with 3 samples.

Results

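The trithorax group and SWI/SNF genes described here are 9 protein-coding genes of Drosophila melanogaster, chosen by name: trx, ash1, ash2, brm, osa, mor, Trl, kis and skd. They were looked up by symbol among the 13968 protein-coding genes of the Ensembl annotation, and all 9 were found. The data are peak lists from chromatin immunoprecipitation with sequencing (ChIP-seq) of Row, a zinc-finger protein of chromatin. Whole embryos of mixed age, collected from 0 to 24 h, came from a transgenic strain whose Row protein is fused to enhanced green fluorescent protein. The tag was precipitated with an antibody against green fluorescent protein. There was 1 group of 3 biological replicates from the same strain, each with its own biosample label, and no other genotype, treatment or stage, so no contrast between conditions exists. Because the embryos were whole and of all ages, binding in few cells and weak binding in many cannot be told apart.

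Trithorax group proteins keep developmental genes, Hox genes among them, active against Polycomb repression, and many were found as mutations that weaken Polycomb phenotypes. Some of them methylate histone H3, as Trx and Ash1 do. Others, such as Brahma, use ATP to move or evict nucleosomes as part of the SWI/SNF complexes, which are called BAP and PBAP in the fly. GAGA factor, the product of Trl, binds repeats of GA in promoters and keeps them open.

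The main list of the study held 10483 peaks and came from replicates 1 and 2. It is a thresholded list, which means that the authors kept peaks at an irreproducible discovery rate (IDR) of 0.01 or less, the IDR being the estimated rate of peaks that fail to repeat. The thresholded lists of the single replicates held 10959, 8567 and 7635 peaks in the order of replicates 1 to 3. Ranked lists hold all peaks before that threshold and give each an IDR, printed below as its −log10 and reaching at most 5. In the list of replicates 1 and 2 the IDR compares those replicates. A single replicate's list cannot measure repeating between replicates, and the pooled list's compared intervals match almost none of a replicate's. IDR values of these lists therefore do not measure the same comparison. A promoter summit is a peak summit within 500 bp of a transcription start site (TSS) of the gene, and a gene body summit lies inside the gene and farther than that from its own TSSs. Signal values are the authors' own enrichment per peak and rank 1 is the highest signal of a list, so both are read within a list only. Since no read numbers entered, the depth behind each peak is unknown and no counting interval can be given. The signal values of the main list are those of a pool, which the deposited file notes trace to the alignments of all 3 replicates, so the main list is not independent of the replicate lists.

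Row was listed at the promoters of 6 of the 9 genes in the main list, namely ash1, ash2, brm, Trl, kis and skd, while trx, osa and mor had no promoter summit there. Over all protein-coding genes the share was 36.4%. The same 6 genes were found in each thresholded list of a single replicate, where the shares over all genes were 40.3% in replicate 1, 32% in replicate 2 and 32.8% in replicate 3. They were again the 6 found in the pooled list, against 42.7% of all genes. In every replicate's thresholded list, a peak overlapped each of the 6 promoter peaks. The median signal of the 6 strongest promoter summits was 896, and that of the 5089 bound protein-coding genes was 507. With a window of 250 bp these medians were 557 and 498, and with each summit given to the nearest gene only they were 557 and 466, the 6 genes being the same. In the ranked lists of the single replicates, taken without any threshold, all 9 genes had a promoter summit, but 65.6%, 52.2% and 52.5% of all protein-coding genes did too.

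**Figure D1:**
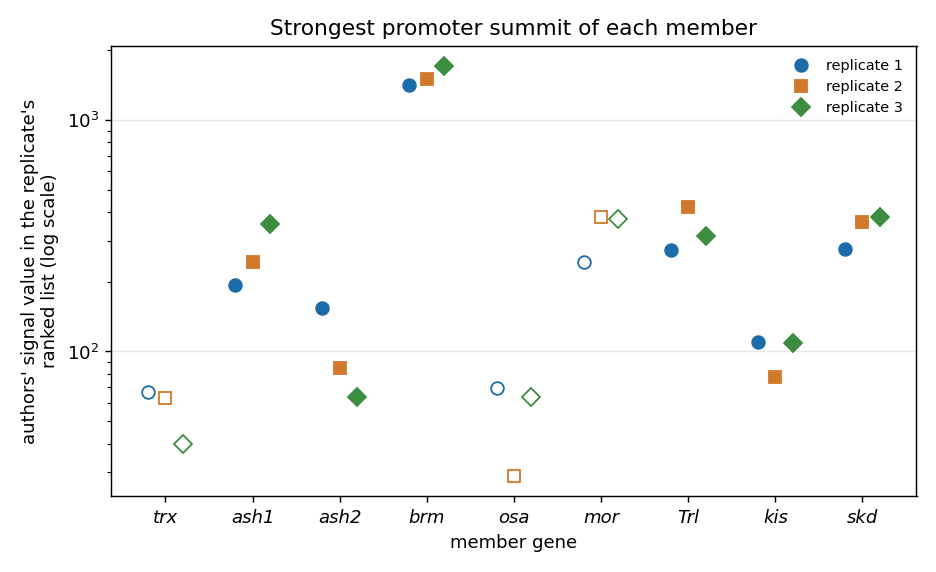
Signal value (log scale) of the promoter peak of each gene in the ranked list of replicates 1, 2 and 3. Filled symbols are peaks that the replicate's thresholded list also holds, open symbols are peaks that it lacks; brm was highest in every replicate, and all 9 symbols of trx, osa and mor are open.

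Among the SWI/SNF genes, brm carried the highest promoter signal of the 9 genes in the main list. It encodes Brahma, the ATPase that drives both fly complexes. Its promoter summit at chr3L:15982999, inside a peak from 15982761 to 15983244 (assembly dm6), had a signal of 4596 and rank 36 in the main list. In the replicates the signal was 1413, 1504 and 1704, with ranks 49 of 10959, 53 of 8567 and 14 of 7635. All 3 replicates thus placed it near the top of their lists, and 99.3% of the bound protein-coding genes had a lower promoter signal in the main list. The summits of the 3 replicates lay within 27 bp of each other. The site lies between brm and Arl1, which encodes an Arf-like GTPase of the Golgi and is transcribed the other way. It was 130 bp upstream of the brm TSS and 136 bp from that of Arl1, so the peak counts for both genes. A second, weaker summit lay in an intron of brm, with a signal of 406 and rank 3771, at 742 bp from the TSS of CG17029, a gene inside brm.

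The gene mor encodes Moira, a scaffold subunit of the same complexes. None of the thresholded lists held a summit in mor or at its promoter. The ranked list of replicates 1 and 2 did hold one, 161 bp upstream of the TSS at chr3R:15973074, with a signal of 987, a rank of 1276 among 46604 peaks and a −log10 IDR of 4.94. The replicates' ranked lists gave it signals of 243, 380 and 372, with −log10 IDR values of 4.68, 5 and 5. All of these pass the authors' threshold, so this peak met the IDR threshold in every replicate and is nevertheless missing from each thresholded list. The TSS of Hel89B, a helicase gene on the other strand, lay 224 bp from the summit.

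The gene osa encodes Osa, the ARID subunit that distinguishes BAP from PBAP. Its 4 summits in the main list were all intronic and included a pair of strong ones. The first, at chr3R:17700587 in intron 4, had a signal of 4048 and rank 51 in the main list, and signals of 1296, 1575 and 1180 in the replicates, at ranks 69, 46 and 66 of their thresholded lists. The second, also in intron 4 at chr3R:17704395, had a signal of 2742 and rank 169. These sites were 17763 bp and 13955 bp downstream of the only annotated TSS of osa, far outside any promoter window. A summit 41 bp upstream of that TSS was weak, with a signal of 158 in the ranked list of replicates 1 and 2 and a −log10 IDR of 1.30, short of the threshold of 2. Its −log10 IDR was 3.04 in replicate 1, 1.75 in replicate 2, 2.85 in replicate 3 and 3.63 in the pooled ranked list, so it passed in some lists and not in others, and no thresholded list held it. The weakest of the 4 main list summits had a signal of 85.1 and rank 9871. That summit had a −log10 IDR of 0.57 in replicate 1 and 0.71 in replicate 2, and replicate 3 had none within 150 bp.

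**Figure D2:**
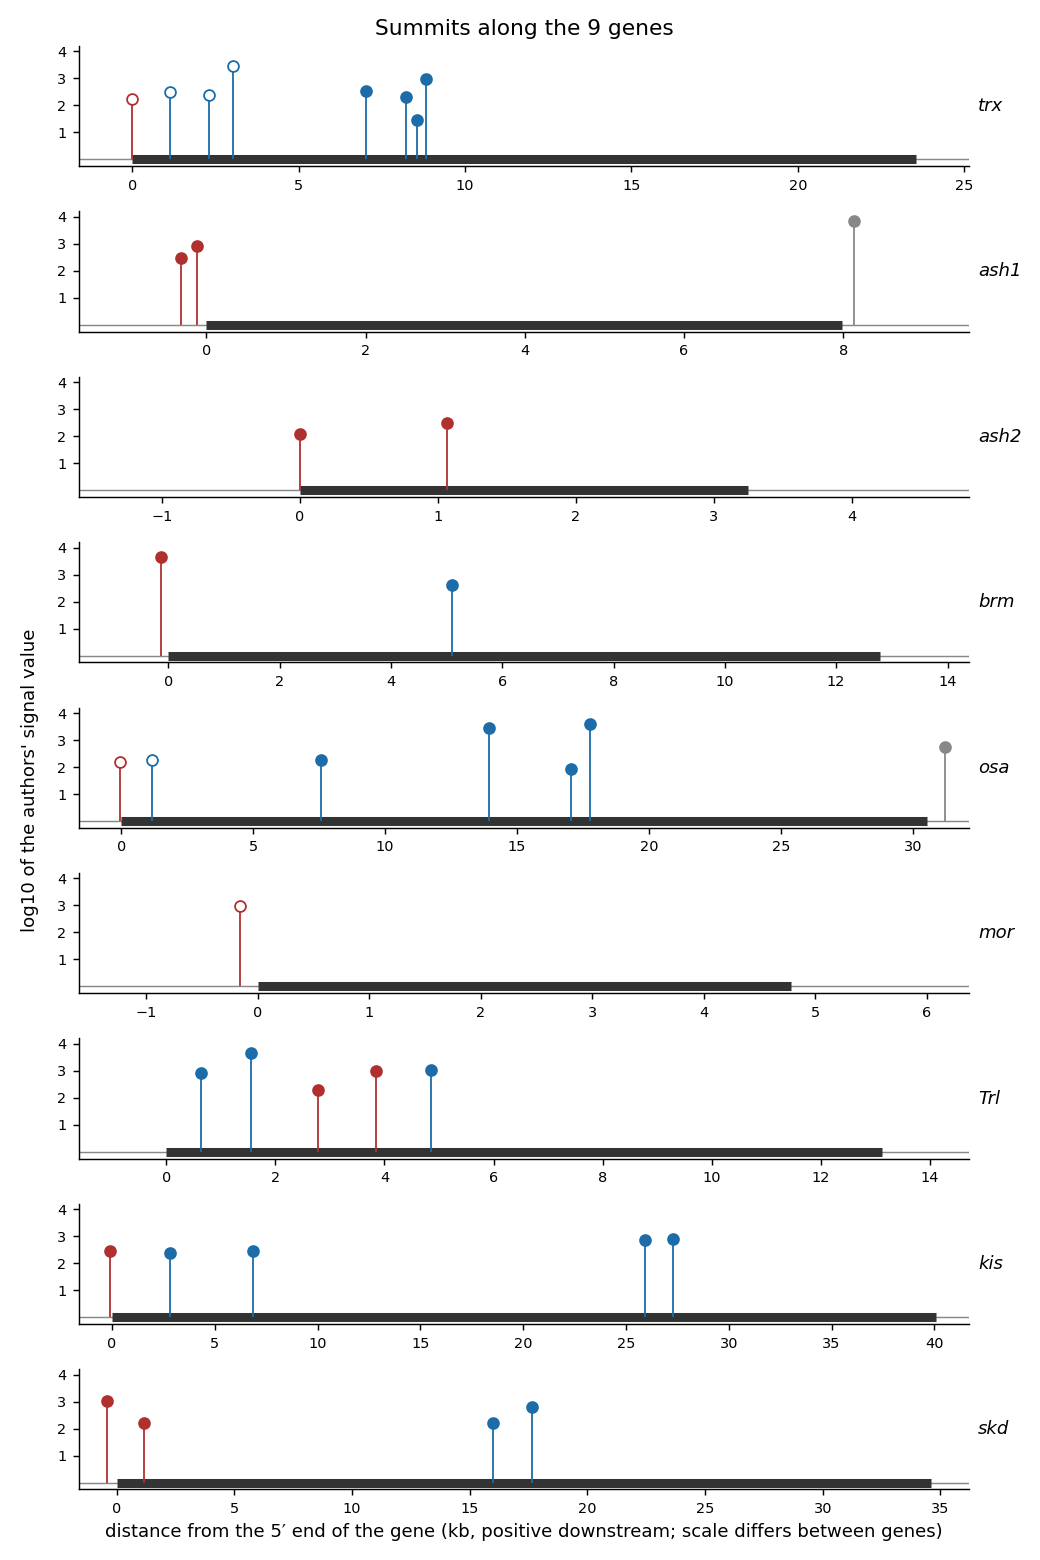
Summits along each of the 9 genes: distance from the 5′ end of the gene in kb (horizontal, its scale differing between genes) against the log10 of the signal value (vertical). The black bar is the gene, red marks promoter summits, blue gene body summits and grey summits within 1 kb of the gene; filled symbols are in the main list and open ones only in the ranked list, which also gives the sub-threshold promoter summit of osa. The strong sites of osa and Trl lie inside the genes, that of brm at its 5′ end.

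The methyltransferase gene trx, which encodes Trithorax itself, a methyltransferase of histone H3 lysine 4, showed the same split between lists. In the main list it had 4 summits, all intronic and between 7034 and 8814 bp downstream of its TSS. The weakest of these 4 had a signal of 28.6 and rank 10141, and no replicate's ranked list held a summit within 150 bp of it. The strongest of the 4 had a signal of 930 and rank 1373, and signals of 383, 353 and 226 in the replicates. A stronger peak, nearer to the TSS, was present only in the ranked lists. Its summit at chr3R:14283875 in intron 1, 3028 bp downstream of the TSS, had a signal of 2939 and rank 150 in the ranked list of replicates 1 and 2, with a −log10 IDR of 5. The replicates gave 1114, 1029 and 819, at ranks 113, 169 and 195 of their ranked lists, each with a −log10 IDR of 5, and the 3 summits lay within 4 bp. With it went 3 other peaks past the threshold, one of them at the promoter, 25 bp upstream of the TSS, with a signal of 173 and a −log10 IDR of 2.94. That promoter peak had a −log10 IDR of 3.73 in the pooled ranked list, but missed the threshold in every replicate's own ranked list, at 1.92, 0.46 and 1.38. Replicate 1 alone had a second promoter summit in its ranked list, 239 bp downstream of the TSS, with a signal of 39.5 and a −log10 IDR of 2.14. So at trx the listed summits lie deep in the gene, while the peaks within about the first 3028 bp are in the ranked list alone.

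The gene ash1 encodes a methyltransferase of histone H3 lysine 36. Its promoter peak at chr3L:19598701-19599169 held 2 summits. The stronger, 118 bp upstream of the TSS, had a signal of 808 and rank 1668, with 194, 243 and 356 in the replicates. The weaker, with a signal of 310, was 11 bp from the TSS of Taf6, the divergent neighbour that encodes a subunit of the general transcription factor TFIID. No summit of the main list lay inside ash1. Just past its 3′ end, a peak from 19590399 to 19590850 reached into the last bases of the gene and had a signal of 6714 and rank 7, but its summit belongs to the promoter window of CG14100, 91 bp from that TSS.

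The gene ash2 encodes a core subunit of the complexes that methylate histone H3 lysine 4. It had 2 promoter summits, at different TSSs. The stronger, 13 bp downstream of an internal TSS, had a signal of 307 and rank 4878. Replicate 1 gave 154, replicate 2 gave 84.8 and replicate 3 gave 63.8, at ranks 3533 of 10959, 5967 of 8567 and 6254 of 7635. The weaker summit, 3 bp from the first TSS and 85 bp from the TSS of puf, a ubiquitin protease gene, had a signal of 124 and rank 9075. Replicate 2 alone had it in its thresholded list, and both summits lay in the annotated 5′ UTR.

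Trl had 5 summits within 4214 bp. The strongest was intronic, at chr3L:14759503 in intron 2, with a signal of 4464 and rank 38. Its replicate signals were 1475, 1783 and 1243, at ranks 45, 34 and 59 of the thresholded lists. It is outside the promoter windows, since the nearest of the 4 TSSs of Trl was 1541 bp away. The strongest promoter summit was 136 bp downstream of an internal TSS, in a 5′ UTR, with a signal of 985, rank 1249, and 276, 420 and 315 in the replicates. The weaker promoter summit, with a signal of 199, was 312 bp from a TSS of Trl and as far from that of CG42507. Another pair of intronic summits had signals of 1097 and 836. The highest summits of brm, Trl and osa all ranked within the first 51 peaks of the main list, and they were at the promoter in brm and in introns in Trl and osa.

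The gene kis encodes Kismet, a remodelling ATPase of the CHD family. Its promoter summit, 89 bp upstream of the first TSS, was among the weaker ones, with a signal of 293 and rank 5057, and with 109.6, 77.8 and 108 in the replicates. Inside the gene, 4 intronic summits had signals from 243 to 796, so the strongest of them exceeded the promoter summit. The summits of 796 and 747 lay 1573 and 2921 bp upstream of the second TSS of kis.

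The gene skd encodes Med13, a subunit of the kinase module of Mediator, which links transcription factors to RNA polymerase II. Its strongest promoter summit had a signal of 1047 and rank 1125, with 276, 361 and 380 in the replicates. It was 416 bp upstream of skd but 65 bp from the TSS of Pdss2, the divergent neighbour, which encodes an enzyme of coenzyme Q synthesis. The summit nearest to skd itself, 60 bp upstream of the second TSS, had a signal of 157, rank 8045, and only replicate 1 had it in its thresholded list. With a window of 250 bp, or with each summit given to the nearest gene only, skd is therefore bound at 157 and not at 1047.

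**Figure D3:**
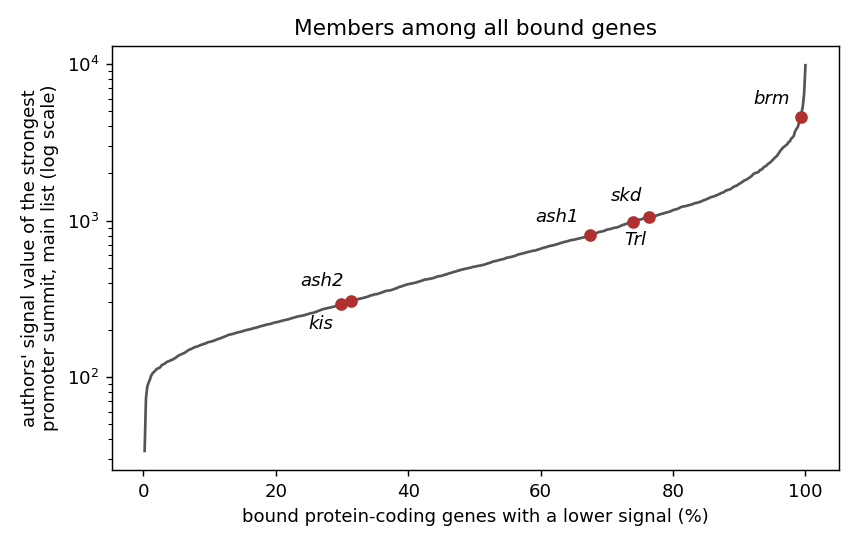
Signal value (log scale) of the strongest promoter summit for the 5089 bound protein-coding genes of the main list, ordered by the share of bound genes with a lower signal (horizontal, %). Red points mark the 6 bound genes: brm has 99.3% of bound genes below it, skd, Trl and ash1 between 67.4% and 76.4%, and ash2 and kis 31.4% and 29.8%.

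A divergent neighbour, whose TSS is at most 500 bp upstream on the opposite strand, was annotated for 5 of the 9 genes (Taf6, puf, Arl1, Hel89B and Pdss2), against 27.3% of all protein-coding genes. The strongest promoter summits of brm, ash1, mor and skd lay in these shared stretches, while the weaker one of skd lay in its intron 1. For 4 of the 6 bound genes the strongest summit was upstream of the TSS, against 90.4% of all bound genes, and ash2 and Trl were the others.

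Inside the genes, 18 summits of the main list lay outside the promoter windows, and all 18 were intronic. Among them are the weakest summits of trx and osa, which the replicates' ranked lists lacked or held only below the threshold. The 18 were found in 6 of the 9 genes, trx, brm, osa, Trl, kis and skd, against 12.9% of all protein-coding genes. Those 6 are the genes of at least 10 kb. Among all 1985 protein-coding genes of that length, 57.7% had a gene body summit, and the median length of the 9 genes was 13.1 kb against 2.16 kb for all. The 6 long genes had a median of 3.5 summits each, or 0.115 per kb, and long genes in general a median of 1, or 0.0341 per kb. The strongest gene body summit of each had a median signal of 863, against 414 over the 1146 long genes with one. The shorter ash1, ash2 and mor had none.

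Peaks that meet the threshold in the ranked list but are missing from the thresholded list of replicates 1 and 2 number 174. Of these, 111 (63.8%) lie on chromosome arm 3R, against 21.9% of the peaks of the main list. Of all protein-coding genes, 0.716% have such a missing summit at a promoter or in the body, and 3 of the 9 genes do, trx, osa and mor. For osa it is a summit in intron 1, 1162 bp downstream of the TSS, with a signal of 188 and a −log10 IDR of 2.72. These 3 genes lie on 3R within 3.45 Mb, a stretch that holds 30 of the missing peaks beside 282 peaks of the main list. When those peaks are counted, 8 of the 9 genes have a promoter summit, against 37% of all protein-coding genes, and osa is the one without. The file notes name a further input for the thresholded lists, of unstated role, and its part in this difference was not tested.

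Promoter sequences are shown for brm as the strongest site, for ash1, and for mor and osa, whose promoter summits the thresholded lists lack. Those lists also lack the promoter summit of trx, whose sequence is not printed. The printed stretches come from the RefSeq sequence of the same assembly, 5′ to 3′ on the plus strand. They reach up to 149 bp on each side of the summit without any annotated exon. All 4 genes lie on the minus strand. Capitals mark matches on either strand to the letters searched. The GAGA repeat, which GAGA factor binds, was searched as GAGAG. The DNA replication-related element (DRE), the site of the factor Dref, was TATCGATA. The core bound by the insulator protein BEAF-32 was CGATA, which each DRE holds on both strands. Motif 1, the site of the promoter factor M1BP, was searched by its core GGTCACAC. The E-box of helix-loop-helix proteins was CAGCTG. The TATA box, the site of the TATA-binding protein, was TATAAA. The core of the initiator, an element at many start sites, was TCAGT.
brm, chr3L:15982870-15983134: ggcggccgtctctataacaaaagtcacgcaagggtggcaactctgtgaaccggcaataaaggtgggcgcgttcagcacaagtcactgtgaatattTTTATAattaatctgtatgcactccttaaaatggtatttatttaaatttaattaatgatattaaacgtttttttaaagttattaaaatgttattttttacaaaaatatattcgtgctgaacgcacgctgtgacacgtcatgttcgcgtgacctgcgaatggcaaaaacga
ash1, chr3L:19598756-19599022: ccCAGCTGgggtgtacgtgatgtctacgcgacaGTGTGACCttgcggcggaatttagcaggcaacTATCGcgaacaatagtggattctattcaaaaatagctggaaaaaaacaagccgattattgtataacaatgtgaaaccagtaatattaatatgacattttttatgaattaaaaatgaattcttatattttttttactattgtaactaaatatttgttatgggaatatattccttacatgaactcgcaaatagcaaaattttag
mor, chr3R:15972925-15973223: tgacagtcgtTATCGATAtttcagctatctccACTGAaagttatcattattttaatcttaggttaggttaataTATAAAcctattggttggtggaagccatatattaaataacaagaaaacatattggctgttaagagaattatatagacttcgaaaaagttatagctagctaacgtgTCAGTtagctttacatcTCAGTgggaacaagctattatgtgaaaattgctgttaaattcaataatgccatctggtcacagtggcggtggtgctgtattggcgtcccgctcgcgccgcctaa
osa, chr3R:17718351-17718540: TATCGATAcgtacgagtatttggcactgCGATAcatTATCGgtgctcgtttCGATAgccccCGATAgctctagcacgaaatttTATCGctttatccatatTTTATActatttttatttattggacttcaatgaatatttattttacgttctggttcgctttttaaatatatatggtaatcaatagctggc
The mor and osa stretches each hold 1 DRE, and the osa stretch has 7 matches to CGATA, 2 of them from its DRE. The brm stretch, at the strongest of these promoters, holds a TATA box match alone.

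The same letters were counted in windows of 301 bp, 150 bp on each side of the strongest promoter summit of the 6 bound genes. DRE was in none of the 6, and in 13.3% of the 4541 promoter summits of the main list. The BEAF-32 core was in 3 (ash1, ash2 and kis), against 53.3%, and the Motif 1 core in 1 (ash1), against 9.67%. The GAGA repeat was in 1 (ash2), against 29.0%. The E-box was in 2, against 18.6%, the TATA box in 1, against 48.0%, and the initiator core in 5, against 43.3%. With 6 windows these counts only describe the genes. At the promoters seen only in the ranked list, the window of osa held 1 DRE and 8 BEAF-32 cores, that of mor 1 DRE, and that of trx 2 Motif 1 cores and no DRE.

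Intronic stretches are shown for the strongest gene body summits of Trl, osa and trx, as 201 bp centred on the summit, on the plus strand of dm6 and with capitals as above.
Trl, intron 2, chr3L:14759403-14759603: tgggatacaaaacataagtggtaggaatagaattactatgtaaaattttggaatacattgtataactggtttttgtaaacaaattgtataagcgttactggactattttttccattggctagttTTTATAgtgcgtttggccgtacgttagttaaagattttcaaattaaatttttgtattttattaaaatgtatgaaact
osa, intron 4, chr3R:17700487-17700687: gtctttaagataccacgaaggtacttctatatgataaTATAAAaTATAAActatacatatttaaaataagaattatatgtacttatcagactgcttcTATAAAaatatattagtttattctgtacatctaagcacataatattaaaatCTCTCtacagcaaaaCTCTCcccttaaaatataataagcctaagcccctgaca
trx, intron 1, chr3R:14283775-14283975: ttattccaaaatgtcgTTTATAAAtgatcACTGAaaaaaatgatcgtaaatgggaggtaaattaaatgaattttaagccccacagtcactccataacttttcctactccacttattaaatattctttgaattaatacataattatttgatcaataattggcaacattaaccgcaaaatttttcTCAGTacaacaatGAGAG
None of these 3 stretches holds a DRE, a BEAF-32 core or a Motif 1 core. In the windows of 301 bp at the 18 gene body summits of the main list, of which 1 pair in trx overlaps, the GAGA repeat was in 9, against 32.5% of the 4037 gene body summits of all protein-coding genes. The strongest summit of Trl, the gene of GAGA factor, had no GAGA repeat in its window, while the strongest summit of osa had 4. Of the other Trl summits, those of signal 836 and 199 had 2 each, and those of signal 1097 and 985 had none. DRE and the Motif 1 core were in none of the 18, and in 0.768% and 0.644% of all. The BEAF-32 core was in 5, against 29.1%, and the E-box in 3, against 10.5%. The TATA box was in 11, against 44.6%, and the initiator core in 7, against 47.2%.

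Genes for partners of the 9 were listed by complex, 51 in all, and 37 of them (72.5%) had a promoter summit in the main list, against the 36.4% of all protein-coding genes. The thresholded lists of replicates 1, 2 and 3 gave 42, 32 and 34 of the 51, against 40.3%, 32% and 32.8% of all protein-coding genes. The median signal of the 37 was 499.9, close to the 507 of all bound genes. When each summit was given to the nearest gene only, 28 of the 51 were bound, against 28.2% of all protein-coding genes by that rule. Unlike trx and mor, none of them gained a promoter summit from the ranked list at the threshold.

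**Figure D4:**
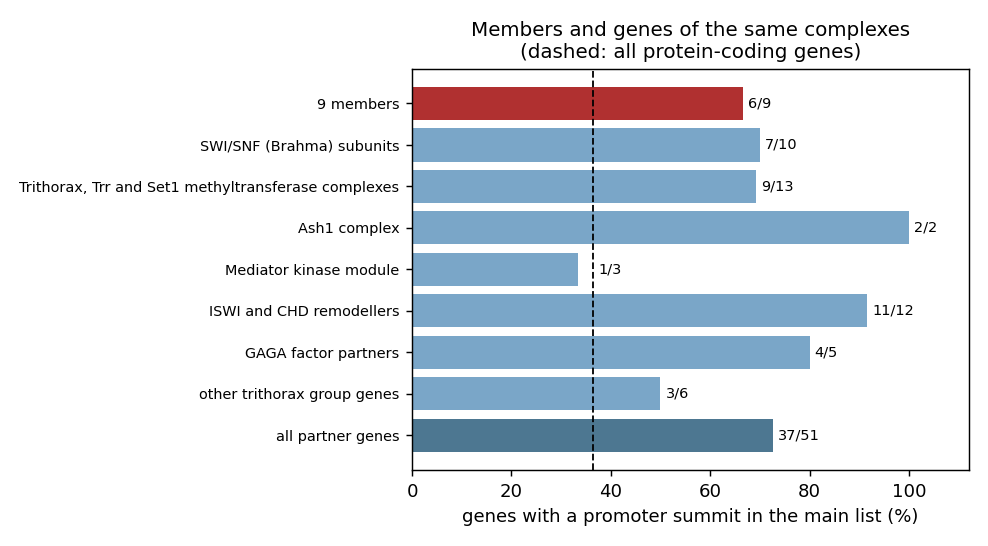
Share of genes with a promoter summit in the main list (%), for the 9 genes (red), for each list of partner genes (light blue) and for all 51 partner genes (dark blue), with the counts beside the bars. The dashed line is the 36.4% of all protein-coding genes; the 9 genes stand at 6 of 9 and the partners at 37 of 51.

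Of 10 other SWI/SNF subunit genes, 7 had a promoter summit. The strongest were at Snr1 (signal 1508), Bap60 (1142) and Act5C (1057), where Act5C encodes the actin of the complexes, and Bap111 and e(y)3 had none. The Bap60 summit was nearer to the TSS of CG12096. All 3 signals were below that of brm.

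Of 13 genes of the Trithorax, Trr and Set1 methyltransferase complexes, 9 had one. They were led by Lpt (1391), Rbbp5 (1061) and Hcf (945), and Mnn1 and Pa1 had none. Lpt encodes a subunit of the Trr complex, Rbbp5 a core subunit shared by the complexes and Hcf the host cell factor. The Lpt and Rbbp5 summits were nearer to CG5339 and eRF1. Both listed partners of Ash1, MRG15 among them, had promoter summits, of signals 166 (MRG15) and 266, below the 808 of ash1 itself.

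In the Mediator kinase module, Cdk8, the kinase, had a promoter summit of signal 581, and CycC and kto, its cyclin and Med12, had none. Of 12 ISWI, CHD and other remodeller genes, 11 had one, led by Ino80 (1908), Chd1 (1422) and tou (517), each above the 293 of kis. The exception was Mi-2, which carried 7 gene body summits instead.

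Of 5 genes for partners of GAGA factor, 4 had one, led by lolal (1296), psq (580) and mod(mdg4) (470), and corto had none. Among 6 further trithorax group genes, Nipped-A (650), vtd (538) and fs(1)h (307) had a promoter summit, and lawc and tara were among the 3 without. The fs(1)h summit was nearer to the TSS of mys.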

How the data were processed

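Row ChIP-seq peak lists of 3 embryo replicates (sonicated to 200 to 800 bp, per the labels) were used on assembly dm6. No aligner or peak caller is named in the sources used here. Per the file headers and notes, the deposited peaks carry a score (a scaled IDR), a signal value and, in ranked lists, the −log10 of the IDR, all made by the authors. The main list was matched to replicates 1 and 2 by its copied intervals. All peak ends lay within the arms of the reference. Genes came from Ensembl release 115 (BDGP6.54), with 19630 protein-coding TSSs on 7 arms. Summits were assigned with Python 3.11.15 and NumPy 2.4.6, tested on simulated summits. A replicate's summit was matched within 150 bp. No test was run: values are descriptions, set beside all protein-coding genes.

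The 9 genes, the partner lists and the motifs were chosen with earlier results of these data known. Of each partner list, the text names up to 3 genes with the strongest promoter summit and the first 2 in alphabetical order without one. An older symbol was matched through RefSeq synonyms, and 1 symbol of the SWI/SNF list added no further gene. Alternatives were other lists, windows of 250 and 1000 bp, the nearest gene only and stricter IDR.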

Additional observations from a re-analysis of the deposited data

How the results depend on the processing

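The 6 genes with a promoter summit stayed at 6 in the pooled list, without any 1 replicate (6 to 6), with windows of 250 and 1000 bp and with the nearest gene only. Of all 13968 protein-coding genes, 42.7% were bound in the pooled list, 28.2% with the nearest gene only, and 4292 and 5691 genes with the 2 windows. The count was 7 in the ranked list at an IDR of 0.001, whose share over all genes is not given here. It was 8 in the ranked list at 0.01 (added after seeing the data), against 37% of all genes. In the unthresholded lists of replicates 1, 2 and 3 it was 9 each time, against 65.6%, 52.2% and 52.5%. Genes with a gene body summit ranged from 5 to 7 and gene body summits from 15 to 22 over the settings run. The share of all genes with one was counted in the main list alone. There it was 12.9%, or 57.7% of the genes of at least 10 kb, so the ranges have no background beside them. Bound partner genes ranged from 28 to 44. The 44 were found in the pooled list (42.7% of all genes) and 28 with the nearest gene only (28.2% of all genes). At an IDR of 0.001 the count was also 28, but no share over all genes was counted there. The median rank of the strongest promoter summit per bound gene, 1458.5, moved to 3273 with a window of 250 bp and to 3273 with the nearest gene only, through skd. Without 1 replicate it was 1458 to 1458.5, the list without replicate 3 being the main list itself. The pair lists share the pool's signal values, so leaving out a replicate changes the choice of peaks and not their signal. No paired analysis was possible because there is 1 group. The number of replicates and the unknown depth limit what a missing summit shows.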
